A study of Mus musculus with 15 samples.

Results

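The kidneys described here are those of mice that received folic acid and then the leptin-neutralizing antibody LepAb (LepK, 3 libraries), set against kidneys of vehicle-injected mice (WTK, 3 libraries). These are 6 of the 15 RNA-seq libraries of the study, chosen by their group labels, and all genes were compared. Leptin neutralization was studied as a treatment of organ fibrosis, and the comparison asks which transcripts still differed from the uninjured kidney after the treatment. The mice were male wild-type C57Bl/6 animals of 10 to 12 weeks. LepK mice were given 1 intraperitoneal dose of folic acid (200 mg/kg), which causes acute tubular injury followed by fibrosis, and then repeated LepAb injections, the dose used in the study being 10 mg/kg, and kidneys were taken at day 28. WTK mice received the bicarbonate vehicle, and their labels name no antibody. The paper describes LepAb or IgG injections after vehicle as well as after folic acid, so the antibody status of WTK is not settled. Unless WTK mice also received LepAb, folic acid and LepAb differ at once between the groups, and the part of each in a difference cannot be told apart. The 3 kidney libraries from mice given folic acid and control IgG (IgGK) are quoted beside the results as values. LepAb is a human monoclonal antibody that binds human and mouse leptin. Each library is taken as 1 mouse, although the labels do not say so, and if several came from 1 animal the p-values would measure technical spread only. Whole-kidney RNA was sequenced, so that fewer cells of a type and less RNA per cell cannot be told apart.

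The proximal tubule, which forms most of the renal cortex, reabsorbs glucose, phosphate, amino acids and filtered protein and draws its energy mainly from fatty acid oxidation in mitochondria. Folic acid in high dose injures this segment. Injured tubule cells stop making their transporters and switch on proteins such as KIM-1 (encoded by Havcr1), NGAL (Lcn2) and VCAM1, while macrophages and lymphocytes enter the interstitium and fibroblasts deposit collagen and fibronectin. Leptin, a hormone made by adipocytes, signals through its receptor, JAK2 and STAT3, and the STAT3 target SOCS3 dampens the same receptor.

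Depth lay between 25913969 and 32321976 counts in the 6 libraries. TMM factors, which rescale library sizes so that most genes do not differ, were 0.844 to 0.858 in WTK, 0.970 to 1.05 in LepK and 1.14 to 1.18 in IgGK, and levels are given below as normalized CPM, read counts brought to a common library total after this scaling. The first principal component (59.8% of the variance of log2 CPM) placed WTK at -89.1 to -77.4, LepK at -5.61 to 33.7 and IgGK at 60.1 to 83.1. LepK replicate 2 stood apart from all other kidney libraries on the second component. That library held transcripts typical of hepatocytes. The summed level of 24 hepatocyte genes was 21.2, 1324 and 56.8 normalized CPM in LepK replicates 1, 2 and 3, against 18.6 to 20.3 in WTK and 16.2 to 161 in IgGK. Of the 24, 21 were called higher in LepK by edgeR, 4 without LepK replicate 2 and 4 to 6 without 1 of the WTK libraries. Markers of the adrenal cortex summed to 6.24 to 7.39 normalized CPM in WTK and 5.90 to 8.09 in LepK, but to 516 and 657 in IgGK replicates 1 and 2. No skeletal muscle marker of 4 was called. Results that rest on LepK replicate 2 are given with and without it. Of the genes defining kidney, those of the proximal tubule, loop of Henle and collecting duct were abundant in all 6 libraries, as the summed levels below show.

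**Figure D1:**
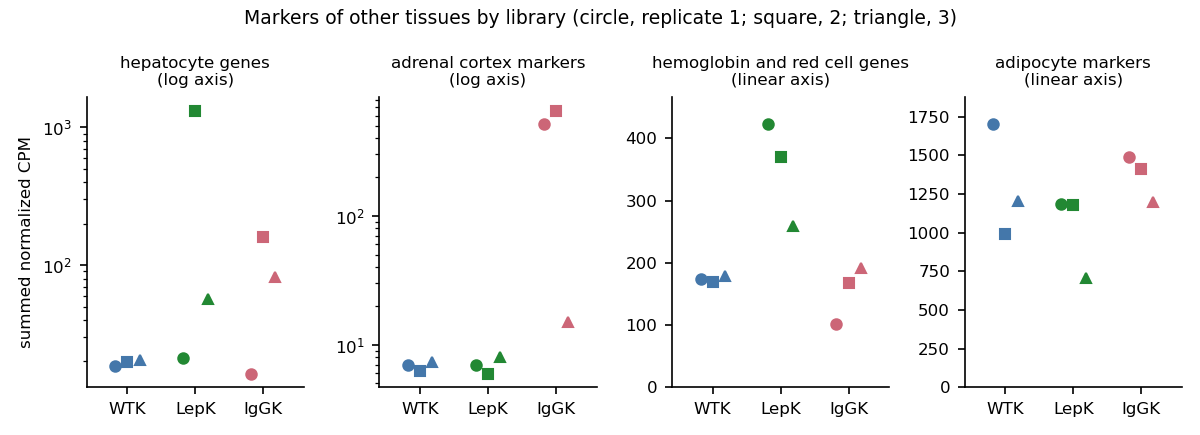
Summed normalized CPM (y axis, log or linear as marked) of markers of 4 other tissues in each of the 9 kidney libraries, with 1 symbol for each replicate and 1 colour for each group. LepK replicate 2 stands at 1324 in the hepatocyte panel and IgGK replicates 1 and 2 at 516 and 657 in the adrenal panel, while the 3 LepK libraries lie at 259 to 423 in the hemoglobin panel, above WTK at 169 to 179.

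LepK kidneys remained different from WTK kidneys at 4415 of the 19593 genes tested (22.5%). Of these, 2984 were higher in LepK (15.2% of the genes tested) and 1431 were lower (7.3%). A gene was called when the log2 fold change passed 0.5 in either direction and edgeR's quasi-likelihood test gave an adjusted p below 0.05. Calls lost under edgeR's glmTreat, which tests against a log2 fold change of 0.5, are not marked gene by gene below. It removed the call of 44 of the 199 genes chosen for naming, among them Calb1, Vegfa, Acta2, Col4a1 and Ace. The higher genes had the larger changes. Their median log2 fold change was 1.20, against -0.70 for the lower genes, and 255 of them passed 3 on the log2 scale, counting the 76 genes without a count in WTK at their lower bound, whereas 15 genes fell by more than 3. Part of this upper tail rested on LepK replicate 2. Without it, Alb went from 4.56 to 0.70 and Apoa1 from 5.10 to 1.25. In all, 562 higher and 352 lower genes were then no longer called (399 to 477 higher without 1 WTK library). The number passing 3 without it was not counted. Protein-coding genes made up 2684 of the higher and 1236 of the lower genes, and 15327 of the 19593 genes tested. The 3 LepK libraries did not overlap the 3 WTK libraries at 9842 genes (50.2% of those tested) and at 4299 of the 4415 called. The split between directions depended on the scaling. Of the called genes 67.6% were higher with TMM factors, and 90.3% (4782 higher, 512 lower) with library size alone, which moved the median log2 fold change of all genes from 0.03 to 0.29. IgGK against WTK, which shares the WTK libraries, gave 4253 higher (21.7%) and 3057 lower genes (15.6%) in the same fit.

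**Figure D2:**
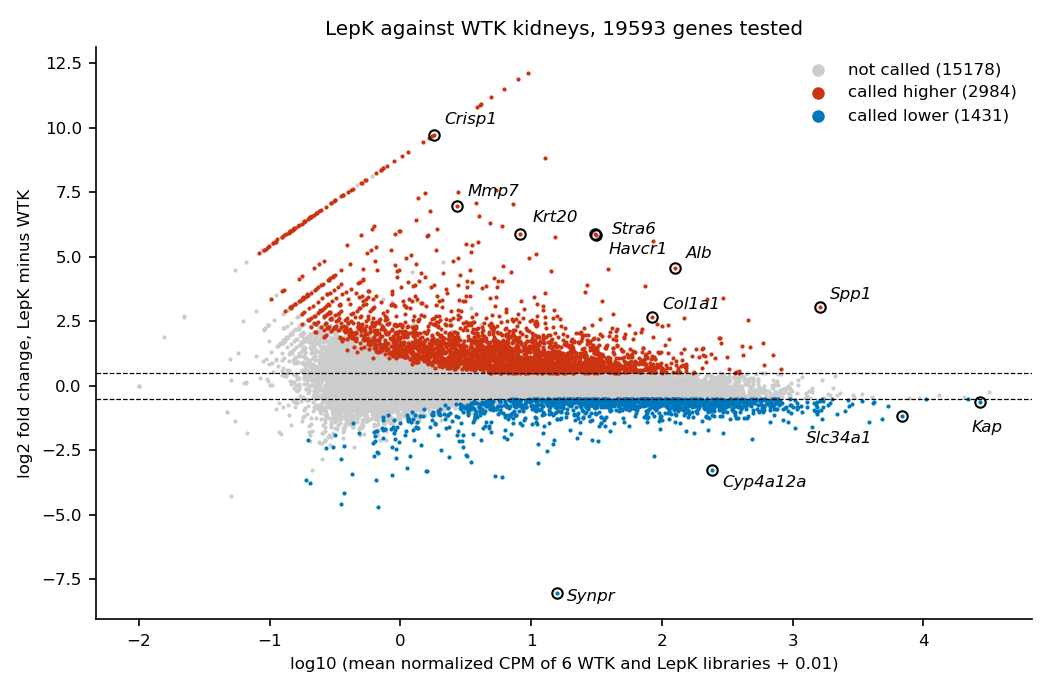
Log2 fold change of LepK minus WTK (y axis) against the log10 mean normalized CPM of the 6 libraries (x axis) for the 19593 genes tested, with 2984 genes called higher and 1431 called lower in colour and the thresholds of 0.5 as dashed lines. The upward spread exceeds the downward one, Synpr lies lowest at -8.04, and the straight line of points at the upper left holds genes without a count in WTK, whose fitted value depends on the prior count.

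Injured tubule genes stayed high in LepK. Of 24 markers tested, 21 were called higher and 1 lower, with a median log2 fold change of 2.08 against 0.03 for all genes. Their summed level was 4283, 5439 and 5954 normalized CPM in LepK and 1328 to 1395 in WTK. Havcr1 (ENSMUSG00000040405, chromosome 11, 46625907 to 46670405, GRCm39) encodes KIM-1, a phosphatidylserine receptor that appears on injured proximal tubule cells. It had 1.12, 1.58 and 0.577 normalized CPM in WTK and 55.4, 55.3 and 74.0 in LepK. All LepK libraries were far above WTK and the groups did not overlap (log2 fold change 5.83, standard error 0.23, adjusted p = 4.50e-08, edgeR). Krt20, a keratin of injured tubule cells and of urothelium, had 0.166, 0.316 and 0.325 normalized CPM in WTK and 15.6, 15.2 and 17.6 in LepK, so that the gene was close to absent in WTK and even among LepK libraries (log2 fold change 5.87, standard error 0.19, adjusted p = 1.23e-08, edgeR). Lcn2, which encodes the iron-siderophore carrier NGAL, had 2.49, 4.62 and 2.99 normalized CPM in WTK and 43.2, 52.0 and 54.5 in LepK (log2 fold change 3.88, standard error 0.19, adjusted p = 1.48e-07, edgeR). Vcam1, an adhesion molecule of tubule cells that have not recovered, had 6.69, 10.2 and 11.4 normalized CPM in WTK and 110.1, 138 and 169.7 in LepK (log2 fold change 3.87, standard error 0.19, adjusted p = 1.48e-07, edgeR). In both genes LepK replicate 1 was the lowest LepK library and still several times above the highest WTK library. Sox9, a transcription factor of regenerating tubule cells, had 0.553 to 0.582 normalized CPM in WTK and 5.73, 9.35 and 10.2 in LepK (log2 fold change 3.87, standard error 0.25, adjusted p = 8.63e-07, edgeR). Spp1 (ENSMUSG00000029304, chromosome 5, 104582984 to 104588916), the gene of osteopontin, had 344, 355 and 349 normalized CPM in WTK and 2206, 2963 and 3443 in LepK. LepK replicate 1 was again the lowest of its group (log2 fold change 3.04, standard error 0.13, adjusted p = 7.78e-08, edgeR). Clu, which encodes the chaperone clusterin, was raised by 1.53 on the log2 scale (adjusted p = 6.57e-07, edgeR). Itgb8, an integrin subunit, was the 1 member called lower (147 to 168 normalized CPM in WTK, 100.4 to 114 in LepK), and its call was lost without LepK replicate 2, without WTK replicate 2 and with library-size scaling. Krt8 and Itgb6 were not called (0.27 and 0.13). Leaving out LepK replicate 2 also gave 21 higher members. The same 24 markers had a median of 2.87 in IgGK against WTK.

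**Figure D3:**
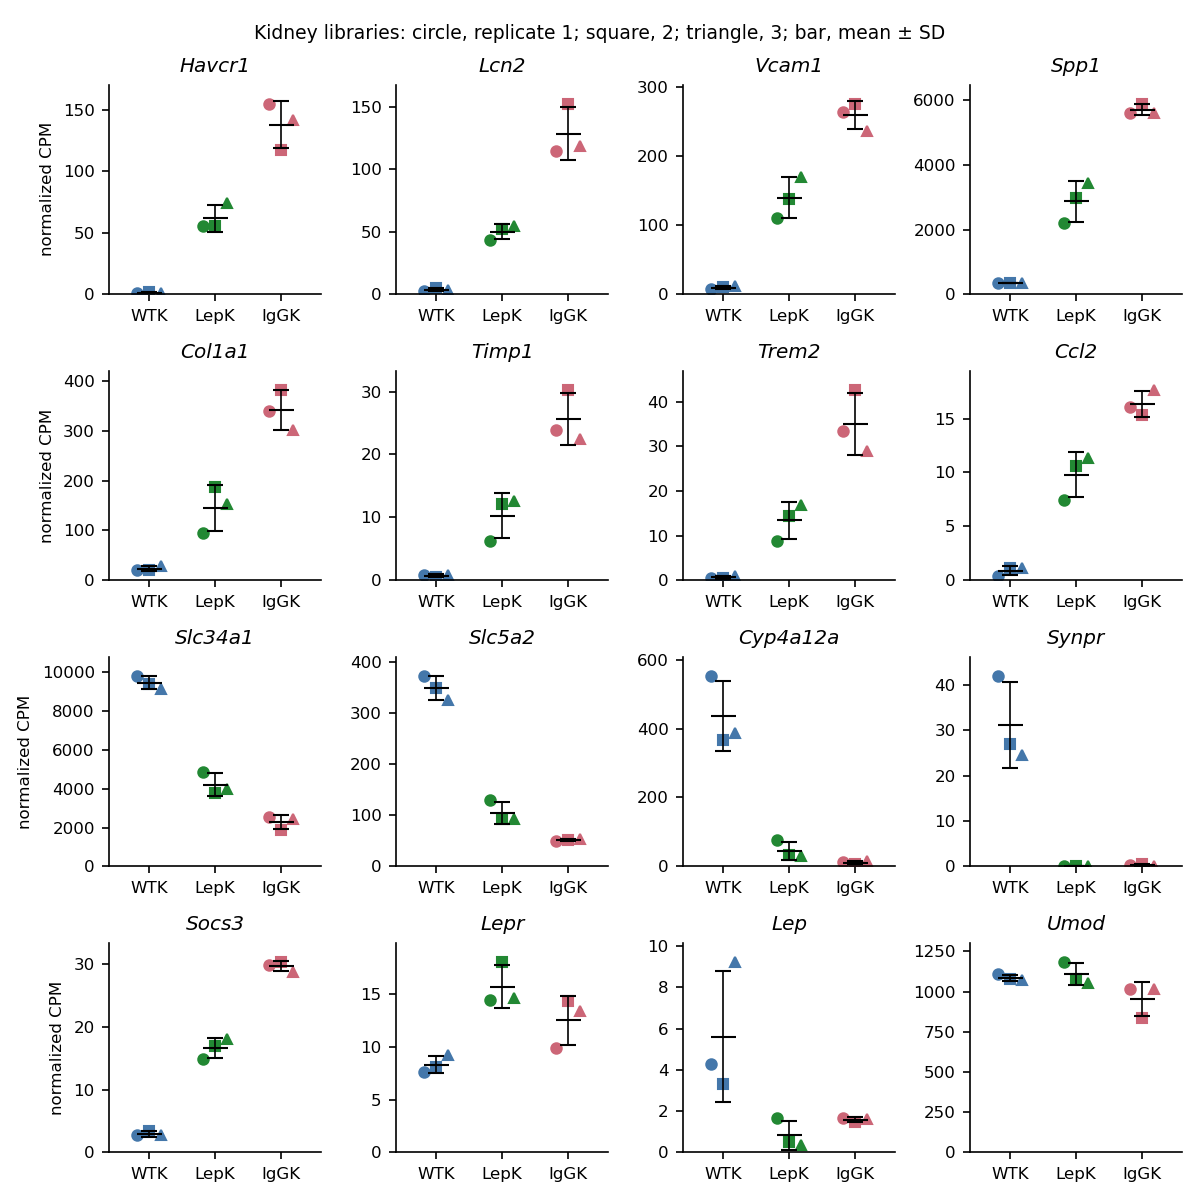
Normalized CPM (y axis, from 0) of 16 genes in the 3 WTK, 3 LepK and 3 IgGK libraries, with symbols for replicates and black bars for the mean and SD of 3. Havcr1, Lcn2, Vcam1, Spp1, Col1a1, Timp1, Trem2 and Ccl2 lie in LepK above WTK and below IgGK, Slc34a1, Slc5a2 and Cyp4a12a lie below WTK, Lepr is highest in LepK, and Umod overlaps between LepK and WTK.

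Transporters and endocytic receptors of the proximal tubule stayed low. Of 35 tested, 24 were called lower and none higher in LepK (all-gene share of lower calls 7.3%), and 18 were called lower with library-size scaling. The median log2 fold change was -0.76. The genes of this list summed to 25669.5, 26043 and 24924 normalized CPM in WTK and to 15946, 12672 and 13474 in LepK. Slc34a1 (ENSMUSG00000021490, chromosome 13, 55546000 to 55563405), the main sodium-phosphate cotransporter, had 9823, 9419 and 9154 normalized CPM in WTK and 4869, 3781 and 3993 in LepK. LepK libraries thus held less than any WTK library (log2 fold change -1.17, standard error 0.12, adjusted p = 1.80e-05, edgeR). Slc34a3, the second renal phosphate transporter, had the largest fall of the list, with 42.0, 35.1 and 31.7 normalized CPM in WTK and 12.7, 5.30 and 8.38 in LepK (log2 fold change -2.04, standard error 0.23, adjusted p = 3.93e-05, edgeR). Slc5a2, which encodes the glucose transporter SGLT2, had 373, 349.9 and 326 normalized CPM in WTK and 130.2, 92.2 and 93.0 in LepK (log2 fold change -1.73, standard error 0.12, adjusted p = 1.54e-06, edgeR), and it overlaps Rusf1 on the genome. Slc6a19, the transporter of neutral amino acids, had 427, 507 and 433 normalized CPM in WTK and 154, 107 and 120.3 in LepK (log2 fold change -1.84, standard error 0.13, adjusted p = 2.05e-06, edgeR). Megalin (Lrp2), the receptor that takes up filtered protein, fell by 0.97 on the log2 scale (adjusted p = 0.000133, edgeR). Its partner cubilin (Cubn) fell by 0.57 (adjusted p = 0.00067, edgeR), a call that was lost without LepK replicate 2 and with library-size scaling. The 11 members not called included Slc5a1, which encodes SGLT1 (0.22), Mme (0.22) and Dpp4 (-0.18). Beside these, the 35 genes had a median of -1.28 in IgGK against WTK, with 31 called lower.

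Among organic ion and drug transporters 16 of 25 were lower and 1 was higher (9 lower with library-size scaling). Slco1a1, a carrier of organic anions, had 937, 768 and 684 normalized CPM in WTK and 302, 131 and 138 in LepK. LepK replicate 1 held about as much as both other LepK libraries together (log2 fold change -2.06, standard error 0.50, adjusted p = 0.00601, edgeR), and the call was lost with robust dispersions. Slc22a6, the organic anion transporter OAT1, had 1524 to 1612 normalized CPM in WTK and 681 to 892 in LepK (log2 fold change -1.02, standard error 0.12, adjusted p = 4.38e-05, edgeR). Abcc4, an efflux pump, was the member called higher (25.6, 23.7 and 29.5 normalized CPM in WTK and 46.2, 82.6 and 82.2 in LepK, log2 fold change 1.42, standard error 0.20, adjusted p = 0.000186, edgeR).

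Metabolic genes of the tubule were lower to differing degrees. Enzymes of amino acid and glycine catabolism were lower for 25 of 36 tested and higher for 2, with a median of -0.62. With library-size scaling 11 were called lower. Gatm, the first enzyme of creatine synthesis, had 534 to 718 in WTK and 247 to 284 in LepK (log2 fold change -1.25, standard error 0.11, adjusted p = 7.38e-06, edgeR). Both members called higher, Tdo2 and Kynu, act on tryptophan, and neither was called without LepK replicate 2 or without WTK replicate 2. Tdo2 was also not called with robust dispersions, nor Kynu without WTK replicate 1 or LepK replicate 3. Tdo2, an enzyme made in the liver, had 0.593, 14.8 and 0.849 normalized CPM in LepK. Its log2 fold change went from 4.29 to 1.38 (adjusted p = 0.194, edgeR) without LepK replicate 2.

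Of 38 genes of fatty acid oxidation and peroxisomes, 12 were lower and 1 was higher, with a median of -0.33. With library-size scaling 5 were lower. Ppara, the nuclear receptor that drives fatty acid oxidation, had 51.4, 58.4 and 54.2 normalized CPM in WTK and 21.2, 15.2 and 19.2 in LepK (log2 fold change -1.56, standard error 0.11, adjusted p = 1.97e-06, edgeR). IgGK had 18.3, 19.9 and 18.2, and LepK differed from IgGK by -0.02 on the log2 scale (adjusted p = 0.924, edgeR). Acsm2, a medium-chain acyl-CoA synthetase, had 6998, 6941 and 6493 normalized CPM in WTK and 3686, 2219.9 and 2438 in LepK (log2 fold change -1.29, standard error 0.22, adjusted p = 0.000588, edgeR).

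Subunits of oxidative phosphorylation encoded in the nucleus differed less. In LepK 10 of 86 were lower and 2 higher (7.3% and 15.2% of all genes), with a median of -0.25 that turned to 0.01 with library-size scaling, where none was called lower. In IgGK against WTK 66 of the 86 were lower. Both higher members were forms made mainly in other tissues, Cox8b (muscle and brown fat) and Cox6b2 (testis). Cox6b2 went from 0.88 to 0.69 (adjusted p = 0.0682, edgeR) and was not called without LepK replicate 2, nor without WTK replicate 1. Of 13 protein genes of the mitochondrial genome, 3 were called lower (median -0.48), none with library-size scaling or without LepK replicate 3, and 8 without LepK replicate 1. Mitochondrial transcripts took 9.41 to 9.62% of the counts in WTK, 8.01 to 9.65% in LepK and 5.85 to 6.27% in IgGK.

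Cytochrome P450 genes of families 1 to 4 moved both ways, with 11 of 49 higher and 10 lower (17 higher with library-size scaling, 7 without WTK replicate 1 or WTK replicate 3). With all libraries and TMM factors that was 22.4% higher and 20.4% lower, against 15.2% and 7.3% of all genes. Cyp4a12a (ENSMUSG00000066071, chromosome 4, 115156243 to 115190012), an arachidonic acid hydroxylase of the male mouse kidney with near-identical neighbours, had 553, 368 and 388 normalized CPM in WTK and 75.3, 31.4 and 29.2 in LepK. That was the largest fall of the family (log2 fold change -3.26, standard error 0.37, adjusted p = 3.56e-05, edgeR). Cyp4b1 had 6018, 5487 and 5309.9 normalized CPM in WTK and 2849, 1743 and 1757 in LepK (log2 fold change -1.41, standard error 0.20, adjusted p = 0.000174, edgeR). The largest rises, in Cyp2c50, Cyp2c29 and Cyp3a11, rested on LepK replicate 2, where Cyp2c29 reached 16.1 normalized CPM against 0 and 0.369 in LepK replicates 1 and 3, and none of the 3 was called without it (Cyp2c50 and Cyp2c29 also not without any 1 WTK library, Cyp3a11 not without WTK replicate 3, and none with robust dispersions). Cyp4a10, a target of PPARA, had 87.7, 138 and 108 normalized CPM in WTK and 284, 291 and 333 in LepK (log2 fold change 1.44, standard error 0.20, adjusted p = 0.00017, edgeR) and was also above every IgGK library (145 to 276). Kap, an androgen-dependent transcript of the proximal tubule, held 31997, 34454 and 32899 normalized CPM in WTK and 26049, 18954 and 18458 in LepK. Its fall of 0.65 on the log2 scale (adjusted p = 0.0133, edgeR) was not called without LepK replicate 2 or 3 or with library-size scaling.

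Smaller sets followed. Of 23 genes of folate and single-carbon metabolism 7 were lower and 1 was higher (1 lower with library-size scaling). Cholesterol synthesis had 4 of 22 lower, none with library-size scaling. Glycolysis and gluconeogenesis had 7 of 27 lower and 4 higher (4 lower and 8 higher with library-size scaling). With TMM factors that was 25.9% lower and 14.8% higher, against 7.3% and 15.2% of all genes. Pcx, pyruvate carboxylase, fell by 1.15 on the log2 scale (adjusted p = 2.17e-06, edgeR). Hk2, a hexokinase that most adult tubule segments hardly express, had 3.45, 1.34 and 3.50 normalized CPM in WTK and 13.6, 8.18 and 9.41 in LepK (log2 fold change 1.91, standard error 0.29, adjusted p = 0.000322, edgeR). Conjugation enzymes had 6 of 30 lower and 2 higher, but 4 lower and 9 higher with library-size scaling. Targets of NRF2 had 3 of 23 lower and 1 higher, but none lower and 5 higher with library-size scaling, so that the balance of both sets turned with the scaling (all-gene shares with TMM factors 7.3% lower and 15.2% higher). Genes of the vitamin D, calcium and phosphate hormone axis had 6 of 17 lower, 3 with library-size scaling, and 2 higher. With TMM factors that was 35.3% lower and 11.8% higher, against 7.3% and 15.2% of all genes.

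In other segments of the nephron the number of calls and their direction depended on the scaling. Among 18 loop of Henle and distal tubule markers 3 were higher and 3 lower with TMM factors, and 7 were higher and 1 lower with library-size scaling. With TMM factors that was 16.7% each way, against 15.2% higher and 7.3% lower over all genes. Umod, the gene of uromodulin, had 1109.7, 1076 and 1073 normalized CPM in WTK and 1185, 1082 and 1055 in LepK and was not called (log2 fold change 0.03, standard error 0.08, adjusted p = 0.829, edgeR). Slc12a3, the thiazide-sensitive transporter, had 1381 to 1557 in WTK and 1023 to 1236 in LepK, a difference of -0.39 that did not pass 0.5. Egf, the epidermal growth factor gene of the distal nephron, had 839, 879 and 856 normalized CPM in WTK and 592, 503 and 466 in LepK (log2 fold change -0.72, standard error 0.12, adjusted p = 0.000619, edgeR). Kl, which encodes klotho, the co-receptor of the phosphate hormone FGF23, had 752, 844 and 776 normalized CPM in WTK and 493, 374 and 382 in LepK (log2 fold change -0.93, standard error 0.11, adjusted p = 6.80e-05, edgeR). All LepK libraries lay below all WTK libraries in both, the Egf call was lost with library-size scaling, and IgGK was lower still (229.8 ± 42.1 and 248 ± 29.9, SD, n = 3). Calb1, the calcium-binding protein calbindin, had 248, 365 and 286 normalized CPM in WTK and 425, 418 and 433 in LepK (log2 fold change 0.51, standard error 0.11, adjusted p = 0.00314, edgeR), a call lost without LepK replicate 3, WTK replicate 1 or WTK replicate 3. Collecting duct markers held 1 call in 18 (5.6%, against 15.2% of all genes called higher), Gata3 (0.68), and 6 higher with library-size scaling. Aqp2, the water channel regulated by vasopressin, had 555, 395 and 512 normalized CPM in WTK and 582, 831 and 641 in LepK (log2 fold change 0.49, adjusted p = 0.0182, edgeR) and was not called, but it was called higher under 8 of 17 alternatives (library-size and upper-quartile scaling, a mean of at least 1 CPM, the fit of 6 libraries, and without WTK replicate 1, WTK replicate 3, LepK replicate 1 or LepK replicate 3). Summed, the collecting duct list had 1674 to 1815 normalized CPM in WTK, 1946 to 2205 in LepK and 1318 to 1550.0 in IgGK.

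Among 15 podocyte markers 7 were higher and 1 was lower (11 higher with library-size scaling). The largest rises were in Plce1 (1.29), Tcf21 (1.12) and Thsd7a (1.09), all called without LepK replicate 2 too. The slit diaphragm gene Nphs1 overlapped between groups (9.48 to 14.7 and 11.8 to 19.1, adjusted p = 0.217, edgeR), and it was called higher with library-size scaling. Vegfa, the endothelial growth factor, was the lower member (-0.53, adjusted p = 0.000102, edgeR), but not with library-size or upper-quartile scaling. Of 20 endothelial markers 5 were higher, 3 without LepK replicate 2, and 2 were lower (25% and 10%, against 15.2% and 7.3% of all genes). Vwf (1.04) and Aplnr (0.84) were among the higher members and stayed called without LepK replicate 2. Kdr, the receptor of VEGFA, had 43.3 to 59.6 in WTK and 24.2 to 32.7 in LepK (log2 fold change -0.89, standard error 0.13, adjusted p = 0.000188, edgeR), whereas Pecam1, made by all endothelial cells, was not called (-0.13, adjusted p = 0.287, edgeR; 0.13 with library-size scaling).

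Genes of the extracellular matrix stayed high. Of 41 collagen genes tested, 19 were called higher and 1 lower in LepK (median 0.60), and of 30 matrix glycoproteins 21 were higher and none lower (median 0.86). Without LepK replicate 2, 18 collagens and 17 matrix glycoproteins were called higher. Col1a1, the main collagen of scar tissue, had 20.1, 20.2 and 29.2 normalized CPM in WTK and 95.1, 188 and 153 in LepK (log2 fold change 2.65, standard error 0.22, adjusted p = 5.26e-06, edgeR). Col3a1 had 28.3, 23.7 and 35.9 normalized CPM in WTK and 108, 199.7 and 153 in LepK (log2 fold change 2.39, standard error 0.20, adjusted p = 5.06e-06, edgeR). LepK replicate 1 held the least of both and replicate 2 the most. Fn1, fibronectin, had 24.3, 23.8 and 26.8 normalized CPM in WTK and 85.0, 139 and 122 in LepK (log2 fold change 2.21, standard error 0.15, adjusted p = 1.20e-06, edgeR). Col4a1, a basement membrane chain whose gene overlaps Col4a2, rose by 0.69 on the log2 scale (adjusted p = 6.87e-05, edgeR). Col17a1, a collagen of hemidesmosomes, had the largest change of the family (1.48, 1.88 and 3.91 normalized CPM in LepK against at most 0.316 in WTK). Col27a1 was the 1 collagen called lower (217, 269.8 and 261 normalized CPM in WTK and 151, 168 and 137 in LepK, log2 fold change -0.71, standard error 0.09, adjusted p = 0.000101, edgeR), and not with library-size scaling. Vtn, vitronectin, made mainly by hepatocytes, was called at 4.48 with all libraries and had 1.22 (adjusted p = 0.275, edgeR) without LepK replicate 2, and it was not called without WTK replicate 2 or 3 or with robust dispersions.

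Enzymes that crosslink or process collagen had 7 of 17 higher and none lower. Lox, lysyl oxidase, had 2.41, 3.28 and 4.44 normalized CPM in WTK and 13.6, 24.7 and 15.9 in LepK (log2 fold change 2.41, standard error 0.24, adjusted p = 1.49e-05, edgeR). Metalloproteinases and their inhibitors had 11 of 16 higher and 1 lower. Mmp7 (ENSMUSG00000018623, chromosome 9, 7692091 to 7699586), matrilysin, an epithelial protease of the injured tubule, had 0, 0.0790 and 0.0361 normalized CPM in WTK and 3.49, 5.67 and 7.05 in LepK. With 3 counts in WTK and 466 in LepK, the ratio was 137 with a 95% interval of 46.7 to 668 that covers counting error only. Timp1, an inhibitor of these proteases, had 0.872, 0.513 and 0.793 normalized CPM in WTK and 6.22, 12.1 and 12.6 in LepK (log2 fold change 3.81, standard error 0.31, adjusted p = 4.04e-06, edgeR), while Timp3, an inhibitor bound to the matrix that overlaps Syn3, had 979.8 ± 51.3 normalized CPM in WTK and 371 ± 69.6 in LepK, SD, n = 3 (log2 fold change -1.40, standard error 0.12, adjusted p = 5.95e-06, edgeR). Members of 1 family thus stood far above and far below WTK in the same libraries. The summed level of the 18 genes listed was 706 to 721 in LepK, below the 1041 to 1142 of WTK, although the median member was higher.

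Fibroblast and myofibroblast markers were higher for 15 of 17 (13 without LepK replicate 2) and lower for none, and they summed to 716, 1119 and 929.6 normalized CPM in LepK against 286 to 361 in WTK. Thy1, a surface protein of fibroblasts and T cells, had 2.95, 3.47 and 3.75 normalized CPM in WTK and 12.7, 22.5 and 18.4 in LepK (log2 fold change 2.39, standard error 0.20, adjusted p = 5.65e-06, edgeR). Pdgfrb, the receptor of pericytes, rose by 0.88 and Acta2, smooth muscle actin, by 0.64 on the log2 scale (adjusted p = 6.52e-05 and 7.87e-05, edgeR). Of 31 genes of the TGF-beta family and its responses 13 were higher and 1 was lower. Ltbp2, a matrix protein that binds fibrillin, had 2.08, 0.237 and 1.44 normalized CPM in WTK and 17.5, 30.7 and 32.8 in LepK (log2 fold change 4.43, standard error 0.40, adjusted p = 8.64e-06, edgeR). Bmp7, a growth factor of the healthy tubule, fell by 0.60 (adjusted p = 0.000185, edgeR), a call lost with library-size scaling.

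Immune cell genes stayed high, among them those of macrophages. Of 22 macrophage and monocyte markers 18 were higher and none was lower, with a median of 1.95, and the list summed to 755, 1133 and 1121 normalized CPM in LepK against 237 to 269.6 in WTK. Trem2, a lipid receptor of macrophages in damaged tissue, had 0.415, 0.513 and 0.938 normalized CPM in WTK and 8.86, 14.4 and 16.9 in LepK (log2 fold change 4.39, standard error 0.32, adjusted p = 2.16e-06, edgeR). Gpnmb, a lysosomal glycoprotein of the same cells, had 0.447 ± 0.515 normalized CPM in WTK and 11.7 ± 4.28 in LepK, SD, n = 3 (log2 fold change 4.64, standard error 0.51, adjusted p = 3.06e-05, edgeR). LepK was below IgGK in the same gene (81.6 ± 17.5, SD, n = 3; -2.81 in LepK against IgGK, adjusted p = 0.000196, edgeR). Adgre1, the F4/80 antigen, had 4.28 ± 0.491 normalized CPM in WTK and 14.4 ± 2.70 in LepK, SD, n = 3 (log2 fold change 1.75, standard error 0.15, adjusted p = 5.25e-06, edgeR). Cd163 (-0.88) and Folr2 (-0.61), markers of resident macrophages, Ly6c2 (0.30) and Csf1r (0.43) were the 4 not called.

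Antigen presentation genes were higher for 19 of 22 and lower for none. H2-Aa, a class II chain, had 102, 126 and 131 normalized CPM in WTK and 364, 471 and 448 in LepK (log2 fold change 1.84, standard error 0.13, adjusted p = 2.16e-06, edgeR). T and NK cell markers were higher for 19 of 26, 16 without LepK replicate 2, with a median of 1.69. Cd4 had 1.25, 0.869 and 1.12 normalized CPM in WTK and 3.95, 7.41 and 6.05 in LepK (log2 fold change 2.43, standard error 0.29, adjusted p = 5.69e-05, edgeR). Foxp3, the factor of regulatory T cells, which shares its locus with Ppp1r3f and other genes, had 0.457, 0 and 0.108 in WTK and 1.61, 1.68 and 1.51 in LepK (log2 fold change 3.09, standard error 0.64, adjusted p = 0.00235, edgeR). The 7 members not called were Cd28 (0.90), Gzma (-0.69), Gzmb (0.45), Prf1 (0.16), Nkg7 (0.79), Klrb1c (-0.98) and Ncr1 (-0.32). Against IgGK, 2 of the 26 were lower in LepK and none higher (all-gene shares 5.99% and 4.38%), whereas 18 of the 22 macrophage markers were lower in LepK than in IgGK. Of 25 B cell and plasma cell markers 3 were higher (12% against 15.2% of all genes, 7 with library-size scaling), and Igkc, the kappa light chain, had 829.6 to 1160.3 normalized CPM in WTK and 1228 to 1424 in LepK (adjusted p = 0.265, edgeR).

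Chemokine ligands were higher for 24 of 35 and lower for 1, interleukins and other cytokines for 17 and 2 of 30. Ccl2, which draws monocytes, had 0.374, 1.15 and 1.15 normalized CPM in WTK and 7.41, 10.6 and 11.3 in LepK (log2 fold change 3.43, standard error 0.29, adjusted p = 5.77e-06, edgeR). Cxcl2, a neutrophil chemokine, had 0, 0.158 and 0 normalized CPM in WTK and 1.88, 5.33 and 4.10 in LepK (log2 fold change 6.07, standard error 0.69, adjusted p = 3.81e-05, edgeR). Il1rn, which encodes the interleukin-1 receptor antagonist, had 0.125, 0.0395 and 0.325 normalized CPM in WTK and 4.18, 4.89 and 6.79 in LepK (log2 fold change 4.94, standard error 0.39, adjusted p = 3.67e-06, edgeR). Cxcl3 and Tnfsf11 had no count in WTK and were at least 5.89 and 6.48 times higher in LepK, computed against a floor of 3 counts over the group. The chemokine called lower was Ccl28, an epithelial ligand, with 139, 187 and 129 normalized CPM in WTK and 41.1, 15.6 and 12.3 in LepK (log2 fold change -2.71, standard error 0.39, adjusted p = 0.000207, edgeR). Il18, which overlaps Bco2, and Il15 were the cytokines called lower (-0.96 and -0.61), Il15 not with library-size scaling.

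Complement genes were higher for 18 of 26 and lower for 3. C3, the central component, had 47.6, 35.8 and 68.7 normalized CPM in WTK and 333, 544 and 719 in LepK (log2 fold change 3.39, standard error 0.28, adjusted p = 5.25e-06, edgeR), with LepK replicate 1 at less than the other LepK libraries. Cfi, a protease that inactivates C3b, rose by 2.96 (adjusted p = 3.13e-06, edgeR), whereas Cfb, a protease of the alternative pathway, had 11.4 to 13.9 in WTK and 4.22 to 5.50 in LepK (log2 fold change -1.31, standard error 0.16, adjusted p = 6.50e-05, edgeR). Hc, component 5, had 0, 0.0790 and 0 normalized CPM in WTK and 0.527, 9.29 and 0.148 in LepK, highest in replicate 2, with 2 counts in WTK and 297 in LepK (ratio 131, interval 36.0 to 1088 for counting error only), and stayed called without that library (adjusted p = 0.018, edgeR). Interferon-stimulated genes were higher for 22 of 30 and lower for none, among them Cxcl10 (5.52, 6.75 and 8.22 normalized CPM in WTK and 17.1, 17.5 and 19.8 in LepK, log2 fold change 1.40, standard error 0.15, adjusted p = 2.73e-05, edgeR), which overlaps Art3. Their largest log2 fold change was 1.40. Of 8 neutrophil genes that could be tested of 15 listed, 5 were higher, and 3 of these are the chemokines Cxcl1, Cxcl2 and Cxcl5, which epithelial cells also make.

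**Figure D4:**
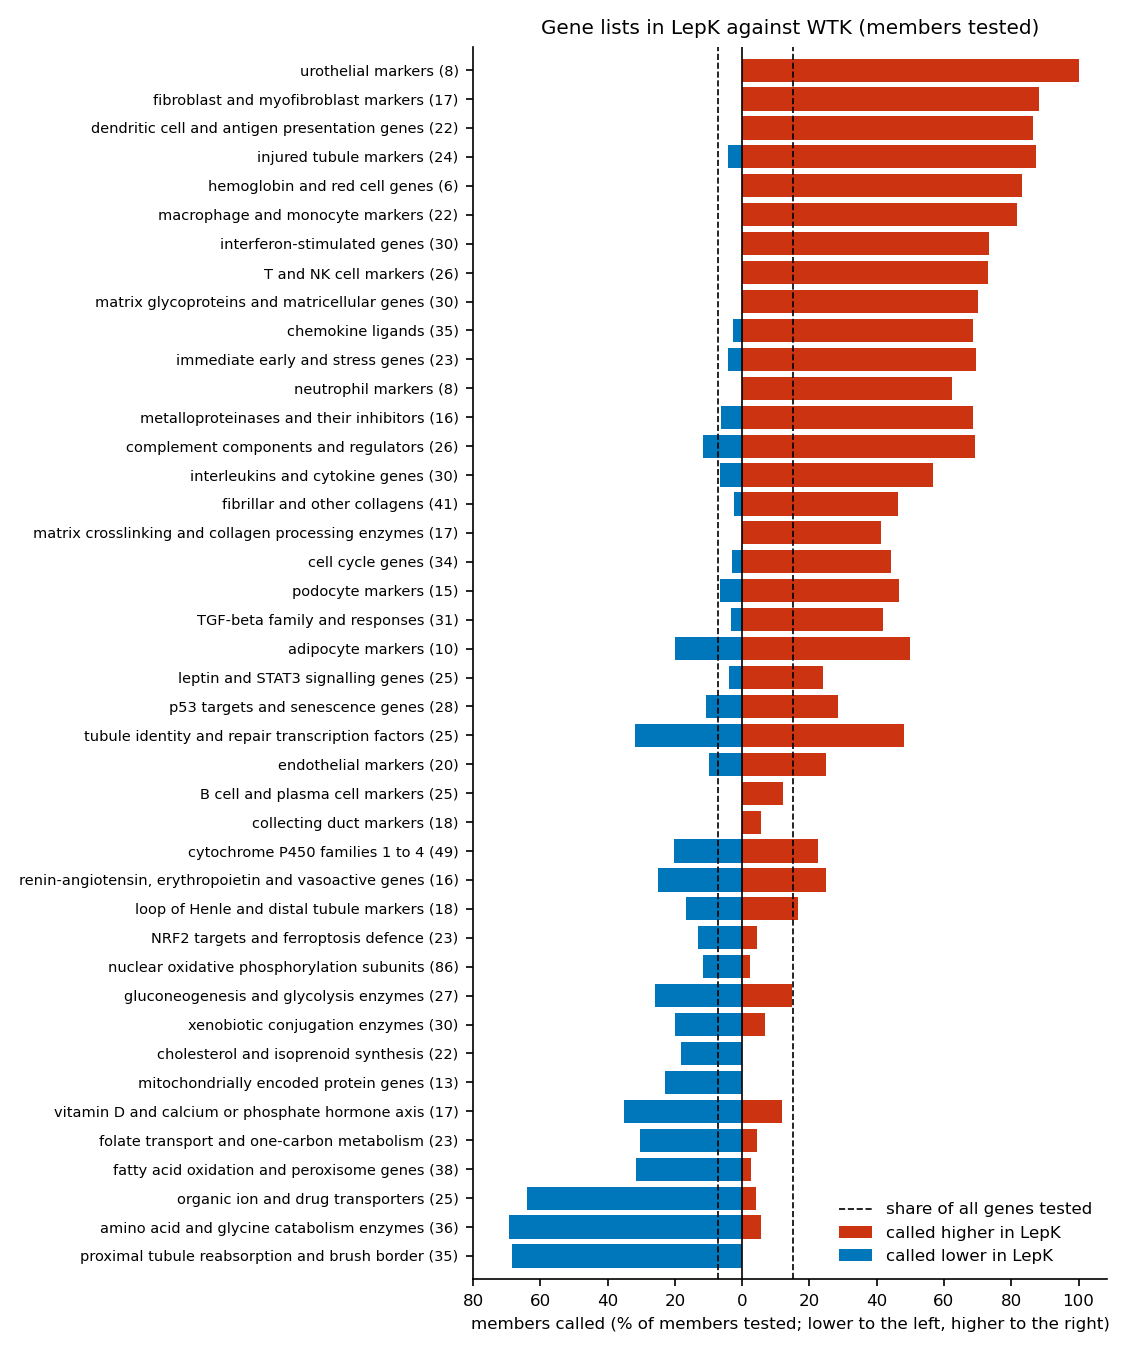
Share of members called higher (right) and lower (left) in LepK against WTK for 42 gene lists (hepatocyte, adrenal cortex, skeletal muscle and the 40 chosen genes left out), as a percentage of the members tested, with the number tested in parentheses and dashed lines at the shares over all genes, 15.2% higher and 7.3% lower. Urothelial, fibroblast, injured tubule, antigen presentation, red cell and macrophage lists lie furthest to the right, and proximal tubule, amino acid and organic ion lists furthest to the left.

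Of 25 genes of leptin and STAT3 signalling, 6 were higher (24% against 15.2% of all genes, 9 with library-size scaling) and 1 was lower, and the median log2 fold change was 0.06. Lep (ENSMUSG00000059201, chromosome 6, 29060219 to 29073876), the leptin gene, had 4.28, 3.32 and 9.23 normalized CPM in WTK and 1.65, 0.503 and 0.369 in LepK. WTK replicate 3 held the most, all LepK libraries lay below all WTK libraries (log2 fold change -2.73, standard error 0.52, adjusted p = 0.00129, edgeR), and IgGK had 1.68, 1.46 and 1.62. Markers of adipocytes, the cells that make leptin, summed to 1703, 991 and 1205 normalized CPM in WTK and 1182, 1177 and 708 in LepK, with 5 of 10 called higher (3 without LepK replicate 2, 3 without WTK replicate 2) and 2 lower. Over the alternatives, those with another threshold left out, the number called higher ran from 1 to 7. The part of fat tissue left on the kidneys in the Lep result was not tested. Lepr (ENSMUSG00000057722, chromosome 4, 101574601 to 101672549), the leptin receptor, had 7.64, 8.06 and 9.20 normalized CPM in WTK and 14.5, 18.1 and 14.6 in LepK (log2 fold change 0.92, standard error 0.16, adjusted p = 0.000612, edgeR). The groups did not overlap, and IgGK had 9.86, 14.3 and 13.4, with no call in LepK against IgGK (0.33, adjusted p = 0.155, edgeR). The counts are per gene and do not separate the long receptor form from the short ones.

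Socs3 (ENSMUSG00000053113, chromosome 11, 117856905 to 117860873), the feedback inhibitor induced by STAT3, had 2.70, 3.44 and 2.70 normalized CPM in WTK and 14.8, 17.0 and 18.0 in LepK. Its 3 LepK libraries lay close together, above WTK and below IgGK (log2 fold change 2.49, standard error 0.12, adjusted p = 1.49e-07, edgeR; IgGK 28.8 to 30.3). Osmr, the receptor of oncostatin M, which also signals through STAT3, had 8.47, 9.44 and 9.92 normalized CPM in WTK and 30.9, 46.1 and 39.6 in LepK (log2 fold change 2.06, standard error 0.13, adjusted p = 1.00e-06, edgeR). Stat3 itself rose by 0.61 (adjusted p = 6.04e-05, edgeR), Il6ra by 1.05 (adjusted p = 0.000582, edgeR) and Socs2 by 1.23 (adjusted p = 2.05e-05, edgeR). Jak2 (0.06), Ptpn11 (-0.31), Ptpn1 (-0.04) and Il6st (-0.33) were not called.

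Shares of promoters that hold a short motif are given for 3 of the motifs searched. RefSeq promoters (GRCm38.p6, 250 bases before to 50 after the start, the first listed for each gene) matched 13036 of the 19593 genes tested by symbol. Both strands were read. TTCNNNGAA (STAT) was held by 7.94% of the higher, 6.19% of the lower and 7.05% of all genes tested. For TGANTCA (AP-1) the shares were 8.03%, 6.09% and 5.70%. For CAAAGTCCA (HNF4) they were 0.709%, 0.967% and 0.437%. Over all RefSeq promoters of this length the shares were 8.47%, 7.93% and 0.477%. These motifs do not overlap one another in the promoters printed, and a match describes letters, not a bound site. Sequences of 2 promoters are shown, 1 each for a STAT3 target and an injury gene that stayed high (values given above), with matches of these motifs in capitals and each sequence 5′ to 3′ on the strand of its gene. Socs3 (chr11:117969317-117969616, minus strand) holds a STAT match starting 154 bases before the start and Mmp7 (chr9:7691840-7692139, plus strand) an AP-1 match at 63. The Havcr1 promoter held none of these 3.
Socs3: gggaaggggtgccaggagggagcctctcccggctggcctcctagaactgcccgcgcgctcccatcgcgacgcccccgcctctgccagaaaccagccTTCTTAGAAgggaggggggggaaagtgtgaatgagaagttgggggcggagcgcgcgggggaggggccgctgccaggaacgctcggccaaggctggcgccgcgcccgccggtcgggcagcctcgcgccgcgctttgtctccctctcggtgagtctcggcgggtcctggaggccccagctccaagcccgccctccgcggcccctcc
Mmp7: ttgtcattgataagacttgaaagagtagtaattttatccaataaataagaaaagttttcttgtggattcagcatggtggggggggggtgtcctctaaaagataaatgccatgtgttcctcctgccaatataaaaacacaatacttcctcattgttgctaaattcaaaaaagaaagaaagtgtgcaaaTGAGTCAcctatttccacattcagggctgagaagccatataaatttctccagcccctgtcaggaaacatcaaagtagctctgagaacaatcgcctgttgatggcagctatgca

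Transcription factors of the tubule went both ways. Of 25 tested, 12 were higher and 8 lower (5 lower with library-size scaling). With TMM factors that was 48% and 32%, against 15.2% and 7.3% of all genes. Hnf4a, a factor of the differentiated proximal tubule, was among the lower, with 993, 979 and 962 normalized CPM in WTK and 610.0, 454 and 527 in LepK (log2 fold change -0.88, standard error 0.10, adjusted p = 3.82e-05, edgeR). It overlaps an antisense gene, whose reads could not be told apart without strand. Sox11, a factor of the developing kidney, had 0.415, 0.316 and 0.216 normalized CPM in WTK and 2.37, 3.59 and 4.50 in LepK (log2 fold change 3.46, standard error 0.33, adjusted p = 1.37e-05, edgeR), and Runx1 had 2.63 ± 0.516 in WTK and 13.0 ± 1.78 in LepK (SD, n = 3) (log2 fold change 2.31, standard error 0.17, adjusted p = 2.17e-06, edgeR). Immediate early and stress genes were higher for 16 of 23 and lower for 1. Egr2 had 0.0831, 0.553 and 0.685 normalized CPM in WTK and 3.56, 3.05 and 4.50 in LepK (log2 fold change 3.03, standard error 0.41, adjusted p = 0.000126, edgeR). Cell cycle genes were higher for 15 of 34, but for 8 without LepK replicate 2, 8 without LepK replicate 3 and 9 without WTK replicate 1. Mki67, a marker of dividing cells, had 2.74, 5.09 and 5.55 normalized CPM in WTK and 8.86, 15.5 and 10.5 in LepK (log2 fold change 1.37, standard error 0.26, adjusted p = 0.00126, edgeR). Ccnd1, cyclin D1, which overlaps LTO1, was the member called lower (155, 207 and 192 normalized CPM in WTK and 76.8, 62.1 and 67.4 in LepK, log2 fold change -1.42, standard error 0.10, adjusted p = 2.17e-06, edgeR). Of 28 p53 targets and senescence genes 8 were higher (12 with library-size scaling) and 3 lower. With TMM factors that was 28.6% and 10.7%, against 15.2% and 7.3% of all genes. Cdkn1a, the cell cycle inhibitor p21, had 3.70, 4.62 and 4.33 normalized CPM in WTK and 10.2, 16.3 and 16.2 in LepK (log2 fold change 1.75, standard error 0.19, adjusted p = 3.17e-05, edgeR). Igfbp3 had 177 to 217 in WTK and 57.4 to 101 in LepK (log2 fold change -1.43, standard error 0.17, adjusted p = 4.56e-05, edgeR).

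Genes of the renin-angiotensin system and other vasoactive genes went both ways, 4 of 16 higher and 4 lower (2 lower with library-size scaling). That was 25% each way, against 15.2% higher and 7.3% lower over all genes. Edn1, endothelin 1, had 1.54, 2.84 and 1.62 normalized CPM in WTK and 6.75, 6.74 and 10.9 in LepK (log2 fold change 2.02, standard error 0.27, adjusted p = 0.000117, edgeR). Ren1, renin, had 61.1, 72.5 and 66.6 normalized CPM in WTK and 47.1, 33.7 and 39.2 in LepK (log2 fold change -0.74, standard error 0.11, adjusted p = 0.000228, edgeR; not called with library-size scaling), and Ace had 338 to 384 in WTK and 159.7 to 247 in LepK (log2 fold change -0.93, standard error 0.19, adjusted p = 0.00247, edgeR). All 8 urothelial markers tested were higher (Krt20 is in the injured tubule list too), Krt5 by 1.63 and Upk3a by 1.63 on the log2 scale, and they summed to 75.5, 98.6 and 94.3 normalized CPM in LepK against 24.8 to 32.1 in WTK. How much of the renal pelvis each sample held was not tested. Transcripts of red cells were higher for 5 of 6, and they summed to 259 to 423 normalized CPM in LepK, 169 to 179 in WTK and 102 to 192 in IgGK. Hbb-bs, a beta globin with a near-identical partner, had 57.6, 58.3 and 55.8 normalized CPM in WTK and 180.3, 141 and 99.4 in LepK (log2 fold change 1.29, standard error 0.24, adjusted p = 0.00111, edgeR), against 36.3 to 73.4 in IgGK. Alas2, the erythroid enzyme of heme synthesis, had 1.91 to 2.21 in WTK, 4.06 to 6.95 in LepK and 1.52 to 2.40 in IgGK (log2 fold change 1.30 in LepK against WTK, adjusted p = 0.00278, edgeR). The blood content of the samples was not recorded in the labels, and its part was not tested.

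Among single protein-coding genes, the largest falls began with Synpr (ENSMUSG00000056296, chromosome 14, 8853423 to 9184983), synaptoporin, a vesicle membrane protein. It had 42.0, 26.9 and 24.6 normalized CPM in WTK and 0.132, 0.101 and 0.111 in LepK. The gene was close to lost in every LepK library (log2 fold change -8.04, standard error 0.41, adjusted p = 1.58e-07, edgeR), and IgGK had 0.198, 0.572 and 0.145. Behind Synpr came Cntnap5a (-3.53), Ct55 (-3.51), Trdn (-3.32) and Popdc3 (-3.31), with at most 1.81 normalized CPM in any LepK library. The largest rises that did not rest on LepK replicate 2 included Crisp1, a secreted cysteine-rich protein, and Arhgap36. Neither had a count in WTK. Crisp1 had 3.98, 3.79 and 3.06 normalized CPM in LepK and was at least 93.4 times higher, and Arhgap36 had 2.11, 4.73 and 3.58 and was at least 88.9 times higher. Stra6, the receptor for the retinol carrier RBP4, had 1.41, 1.18 and 0.577 normalized CPM in WTK and 40.9, 67.2 and 74.6 in LepK (log2 fold change 5.86, standard error 0.28, adjusted p = 1.17e-07, edgeR). Adgra1 had 0, 0 and 0.216 in WTK and 5.43, 9.62 and 8.49 in LepK (log2 fold change 6.59, standard error 0.52, adjusted p = 3.53e-06, edgeR). Uox and Fgb, genes of the liver, ranked with these by size but had 0.724, 22.7 and 0.775 and 0.955, 31.1 and 3.43 normalized CPM, so that LepK replicate 2 carried most of the level, although both stayed called without it, Uox not with robust dispersions (adjusted p without that library = 0.00555 and 0.0056, edgeR).

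The 3 LepK libraries were not equal. Among the 2984 higher genes, LepK replicate 1 was the LepK library nearest to WTK in 2113 (70.8%), replicate 2 in 322 and replicate 3 in 549. Among the 1431 lower genes it was nearest in 1165 (81.4%). Leaving out LepK replicate 1 gave 3185 higher and 1766 lower genes, and leaving out replicate 2 gave 2512 and 1135, of which 2422 and 1079 were among the genes called with all libraries. The position on the first component had the same order, with LepK replicate 1 at -5.61, replicate 3 at 21.2 and replicate 2 at 33.7.

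**Figure D5:**
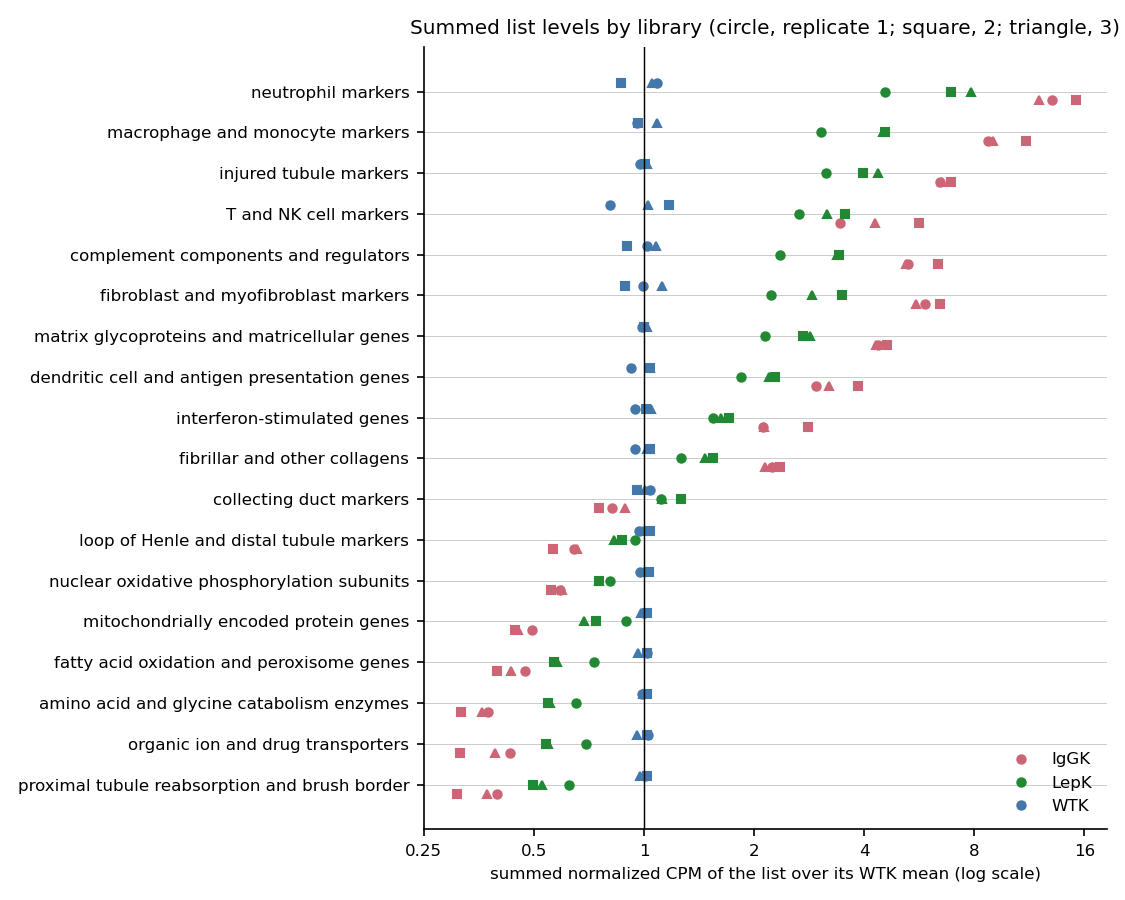
Summed normalized CPM of 18 gene lists in each kidney library divided by the list's WTK mean (x axis, log scale), with symbols for replicates and colours for groups. LepK libraries lie between WTK and IgGK in all rows but T and NK cell markers, where LepK replicate 2 (102.7) passes the lowest IgGK library (99.6), and collecting duct markers, where LepK lies above WTK and IgGK below it, and LepK replicate 1 (circle) is the LepK library nearest to WTK in every row.

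All 3 LepK libraries lay between all WTK and all IgGK libraries at 1534 of the 2984 higher genes (51.4%) and at 741 of the 1431 lower genes (51.8%). They lay beyond both groups at 76 and 52 genes. The comparisons share libraries, so these counts describe levels and are no test. They were made among called genes only. The shares over all genes tested were not computed, so whether these counts are unusual cannot be told. Named below are genes beyond both groups that are protein coding and have a mean of at least 1 normalized CPM. The higher ones with the largest change were Chil3, a chitinase-like protein of macrophages, Lmo1, Zfp248 and Cyp4a10. Lmo1, a transcriptional co-regulator, had 0.914, 0.553 and 1.15 in WTK, 1.19, 1.63 and 1.94 in IgGK and 3.23, 3.22 and 3.29 in LepK (log2 fold change 1.88, standard error 0.33, adjusted p = 0.000722, edgeR; 1.03 in LepK against IgGK, adjusted p = 0.0336, edgeR). Chil3 rested in part on LepK replicate 2 (1.32, 6.87 and 1.18 normalized CPM in LepK). The lower ones were Synpr, D630023F18Rik, Pdpr and Gusb. Synpr was close to absent in both LepK and IgGK (values above), so its place below IgGK rests on few counts. Pdpr, a regulatory subunit of the phosphatase that activates pyruvate dehydrogenase, had 35.9, 34.0 and 34.9 normalized CPM in WTK and 17.0, 12.5 and 14.8 in LepK and 20.7, 20.7 and 21.9 in IgGK (log2 fold change -1.25, standard error 0.10, adjusted p = 5.06e-06, edgeR; -0.52 in LepK against IgGK, adjusted p = 0.00434, edgeR). Gusb, the lysosomal enzyme beta-glucuronidase, had 111, 109 and 86.4 normalized CPM in WTK and 45.9, 42.2 and 43.3 in LepK and 53.8 to 59.1 in IgGK (log2 fold change -1.22, standard error 0.09, adjusted p = 2.58e-06, edgeR), and its difference from IgGK did not pass 0.5 (-0.35).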

How the data were processed

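RNA of 15 libraries was sequenced by the authors' provider, and the 9 kidney libraries were used here. Per the labels the libraries were poly(A) selected and non-directional. The deposited table gives whole-number read counts per gene as the provider made them, and these counts were the only values analysed. It also holds FPKM values, group means of normalized counts (a signal), and the authors' log2 fold changes with p-values, none of which was used. The aligner and counter are not given in the sources used here, and the submitters' processing notes name DESeq2 and GRCm39. Libraries were grouped by title and treatment labels. Models were fitted in R (version 4.3.3) with edgeR 4.0.16, which calls limma 3.58.1, and with DESeq2 1.42.0 as an alternative. Genes passed filterByExpr (minimum count 10, minimum total 15), libraries were TMM scaled, and 1 quasi-likelihood model of the 9 libraries (6 residual degrees of freedom) gave each contrast, with Benjamini-Hochberg adjustment over the 19593 genes tested. A standard error is the log2 fold change divided by the square root of F. One count equals 0.0309 to 0.0386 CPM in the 6 libraries, and intervals cover counting error only. On simulated data the fit called 76% of genes changed by 1 and 96% of genes changed by 2 on the log2 scale, with 13 false calls in 19061 genes. The simulation changed far fewer genes than were called here, all with a mean of at least 1 CPM and evenly up and down. It held no library with transcripts of another tissue, so it gives no error rate for the calls here. Between replicates the chi-square of counts was 7.15 to 29.6 per gene, so none was the same library sequenced again. Whether the libraries came from separate mice cannot be told from this. The comparison, the members and the lists of genes were chosen with earlier results of these data known, and the hepatocyte list was added after seeing them here. Named genes were 40 chosen genes, the 12 largest rises and falls, in each list the 3 largest changes and up to 3 opposed to the majority, the 10 largest level differences, the 6 most variable in LepK and 4 in each direction beyond both groups, and other list members named with a value alone were picked after their values were seen. The alternatives were other scalings, DESeq2, other filters, 6 libraries, a replicate block, other thresholds, protein-coding genes and leaving out each WTK and LepK library in turn. Single IgGK libraries were not left out. Genes that overlap, or that have close copies (Cyp4a, Mup, globin and H2 genes), carry uncertain counts. Figures were drawn with Python 3.11.15 and matplotlib 3.10.9. Results of some genes and of 1 promoter motif are not reported here.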

Additional observations from a re-analysis of the deposited data

How the results depend on the processing

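The 2984 higher and 1431 lower genes became 4782 and 512 with library-size scaling, 1643 and 455 with glmTreat against a log2 fold change of 0.5, and 1839 and 302 with a log2 fold change over 1, and 3650 genes were lower (3919 higher) with no fold change threshold. They were 3135 and 1536 with DESeq2, 2951 and 1456 with RLE scaling, 3153 and 1236 with upper-quartile scaling, 3250 and 1467 without the filter, 2775 and 1332 with a mean of at least 1 CPM, 2779 and 1383 in a fit of the 6 libraries, 2710 and 1251 with protein-coding genes, and 2960 and 1413 with robust dispersions, a setting added after seeing the data. Leaving out 1 WTK or LepK library gave 2512 to 3185 higher and 1135 to 1766 lower genes. The replicate block gave 2946 higher and 1454 lower genes. Replicate numbers did not pair the libraries (correlation of same-numbered deviations 0.0240, -0.0229 and 0.0138), and no named gene lost its call under the block. For the 199 named genes, 3183 of 3358 values under an alternative kept direction and side of the threshold, 164 lost the call (44 of them under glmTreat) and 9 gained it. Both that changed sign were uncalled, Umod without LepK replicate 1 (-0.0192, with a range of -0.0192 to 0.0613 over the libraries left out) and Pecam1 with library-size scaling (0.13). An adjusted p that DESeq2 gave as NA (10 of the called genes) was not counted as lost. Medians of the oxidative phosphorylation, glycolysis, P450, cholesterol, folate, loop of Henle and NRF2 lists were below 0 and turned positive with library-size scaling. Genes under about 1 normalized CPM in both groups rest on few counts.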
